A study of Mus musculus with 16 samples.

Results

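The cytochrome P450 genes described here are the 70 rows, of 21484 genes listed in either of 2 deposited gene tables, whose symbol begins with Cyp and a digit. Cyp51, the sterol demethylase gene, and symbols ending in -ps, which mark pseudogenes, were left out, 6 rows in all. The day 2 table held 65 of the 70 and 62 were in the day 4 table, with 57 in both. Grouped by family number, family 2 had 34 members, family 4 had 14, family 3 had 8, families 1 and 26 had 3 each, family 27 had 2, and families 11, 17, 19, 20, 39 and 46 had 1 each.

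Poly(A) RNA was sequenced from jejunal epithelial organoids of mice on a C57BL/6 background. The organoids of all 16 libraries, the controls included, carried Villin-CreERT2 and Hnf4aflox/flox. With these, the Villin promoter drives a tamoxifen-activated Cre recombinase in intestinal epithelium and the Cre removes the floxed part of Hnf4a. Treated cultures received 4-hydroxytamoxifen (4OHT) at 0.5 µM over 24 h and were then passaged, and controls received the vehicle, DMSO. Each treatment was sampled at day 2 and at day 4, with 4 libraries a group. The protocol names a harvest on day 4 only, and no group received 4OHT without floxed alleles, so an effect of 4OHT itself cannot be told apart from one of Hnf4a deletion. The labels do not say whether replicates were separate cultures or animals, so the p-values reflect no more than the library-to-library spread, which may be technical in origin.

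P450 enzymes are haem proteins that insert an oxygen atom into their substrates with electrons passed on from NADPH. Members of the Cyp1, Cyp2 and Cyp3 families clear drugs and dietary chemicals and also act on steroids and polyunsaturated fatty acids, Cyp4 enzymes oxidise fatty acids and eicosanoids, and the higher-numbered families serve steroid, bile acid, retinoic acid and vitamin D metabolism. In the small intestine most of this capacity lies in the absorptive enterocytes of the villus, and transcription of many P450 genes depends on nuclear receptors and on HNF4A.

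The libraries held between about 63791700 and 93323000 counts. Hnf4a, counted over the whole gene including exons outside the floxed part, read 999.8, 1037, 1051 and 985 CPM (the standard unit of counts scaled to library size, here with TMM factors) in DMSO at day 2 and 518, 532, 505 and 479 in 4OHT. At day 4 it read 961, 978, 970 and 972 CPM in DMSO and 472, 493, 465 and 454 in 4OHT. The 4OHT libraries thus lay below every DMSO library on both days, with log2 changes of −0.99 and −1.04 (adjusted p 8.25e-08 and 1.14e-06, edgeR's quasi-likelihood test with Benjamini-Hochberg adjustment). Absorptive enterocyte markers were abundant, with the 18 listed genes summing to between 6755 and 15015 CPM per library. Of 7 stromal, 9 immune or endothelial and 7 hepatocyte markers, only 3, 5 and 3 were listed in both tables, and their sums stayed at or below 9.55, 3.97 and 16.9 CPM.

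The sequence upstream of the members was searched for the letters CAAAGNNCA, a simple form of the HNF4 recognition motif, on both strands of the 250 bases before and 50 bases after each RefSeq start site (GRCm38.p6). A start-site window was at hand for 61 of the 70 members, and 19 of these (31.15%) held the letters, against 7.27% of all 27025 genes with a window. Such a match describes letters and is neither a binding site nor a cause, and the duplicated Cyp2c, Cyp2d and Cyp3a genes share upstream sequence, so the 19 are not independent. The windows shown are those of members at 10 CPM or more and of Cyp2c70, which fell most among the 19 at day 2. Each runs over 29 bases on the strand of the gene, with the matched letters or their reverse complement in capitals.
Cyp2c65, chr19:39060880-39060908, plus strand: gatgttggaaCAAAGTCCActgggaggag
Cyp2c68, chr19:39741160-39741188, minus strand: atcattgaaaCAAAGTCCAattggaagag
Cyp2c70, chr19:40187332-40187360, minus strand: aggtcaaactCAAAGTCCAaactctgtgt
Cyp2d26, chr15:82794285-82794313, minus strand: aggcagagaaCAAAGTGCAgccttcccct
Cyp3a11, chr5:145879945-145879973, minus strand: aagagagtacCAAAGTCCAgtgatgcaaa
Cyp3a25, chr5:146009779-146009807, minus strand: aatataagctCAAAGGTCAgagtaagaaa
Cyp4b1, chr4:115647860-115647888, minus strand: aatcatactcTGTCCTTTGgtgcctatga

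Cyp2c65 and Cyp2c66 are neighbouring copies on chromosome 19 (39061015 to 39093944 and 39113898 to 39187072, plus strand, GRCm38) whose start-site windows aligned over 271 bases with 256 identical. The 9 bases in capitals differed by 1 substitution, A9C counted from the 5′ end of the motif with the Cyp2c65 base first, which takes Cyp2c66 out of the matching set. The pair was picked after its values were seen and is shown because the transcripts moved apart in the 4OHT cultures, as described for each day. Both runs are on the plus strand.
Cyp2c65, chr19:39060865-39060923: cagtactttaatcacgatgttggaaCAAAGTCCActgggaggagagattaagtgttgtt
Cyp2c66, chr19:39113769-39113827: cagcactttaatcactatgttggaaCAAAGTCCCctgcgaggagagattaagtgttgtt

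The core letters of the dioxin response element, TNGCGTG, bound by the aryl hydrocarbon receptor, were present in 1 of the 61 windows, that of Cyp2c68, against 5.84% of all genes. Sequence more than 250 bases before a start site was not searched, so elements lying there would be missed.

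P450 transcripts in these organoids came from few genes. Of the 70 members, 36 reached a mean of 1 CPM in some group, 25 reached 10 CPM and 12 reached 100 CPM. The 5 highest over all libraries were Cyp4f14, which inactivates leukotrienes, the epoxygenase-family genes Cyp2c65 and Cyp2j6, Cyp3a13 and Cyp2b10, the last 2 of xenobiotic-metabolising subfamilies. Together they supplied 54.3% to 64.2% of all P450 CPM per library, and the 12 highest supplied 84.0% to 87.7%. Per kilobase of exon, the mean level over 16 libraries was 238 CPM for Cyp2c65, 193 for Cyp4f14, 111 for Cyp2j6, 89.2 for Cyp3a13 and 83.3 for Cyp2b10, so Cyp2c65 leads in that mean once length is counted. In DMSO at day 4 the order was reversed, with 208 CPM per kilobase for Cyp4f14 and 188 for Cyp2c65.

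**Figure D1:**
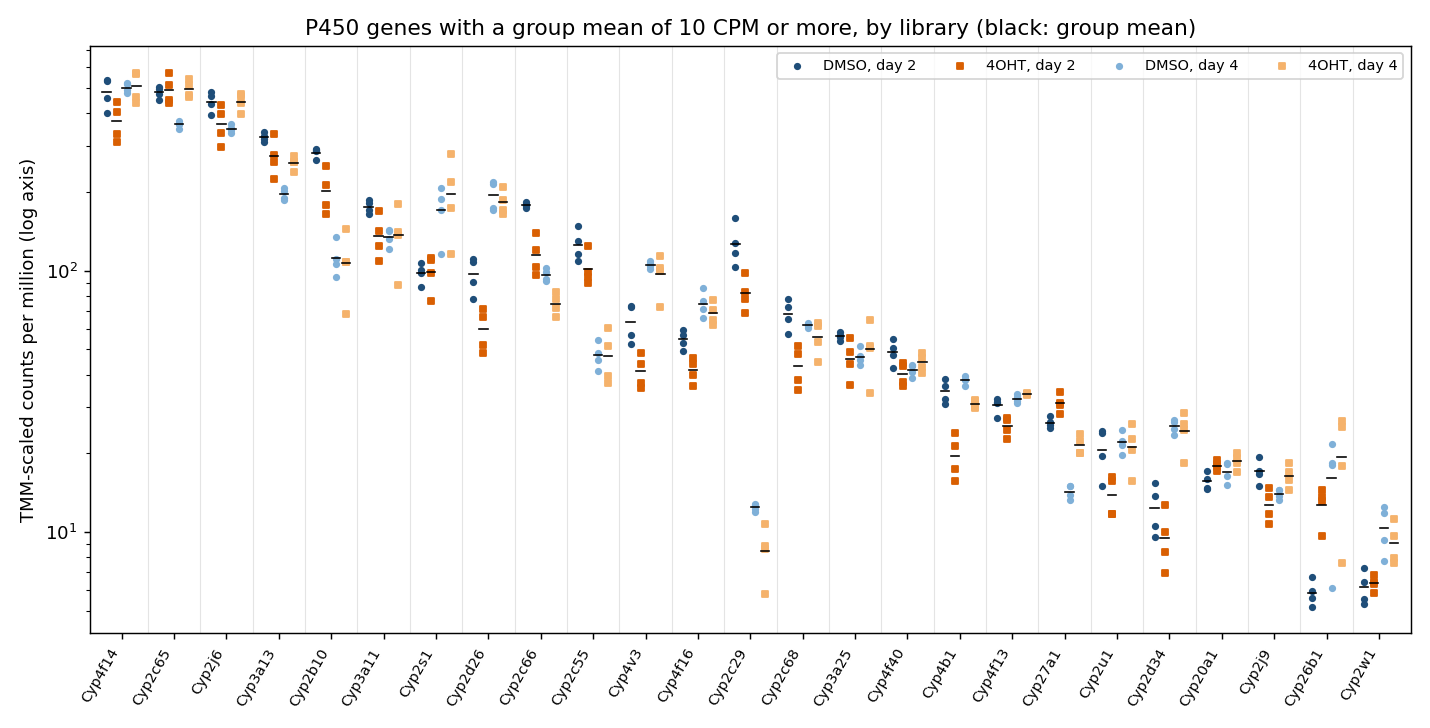
TMM-scaled CPM on a log axis of the 25 P450 genes whose mean reached 10 CPM in at least 1 group, with a point for each library and a black bar at each group mean of 4 libraries. Levels run from the highest, Cyp4f14, Cyp2c65 and Cyp2j6, to below 10 CPM for Cyp2w1 and Cyp26b1 at day 2 in DMSO, and Cyp2c29 shows the deepest drop between the days.

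Below 1 CPM in every group were 34 members, among them Cyp17a1 and Cyp19a1, enzymes of steroid hormone synthesis, Cyp1a2, a hepatic drug oxidase, and Cyp27b1, which activates vitamin D. Of these, 21 had too few counts to be tested for treatment on either day: Cyp1a2, Cyp2a5, Cyp2b9, Cyp2b19, Cyp2c37, Cyp2c39, Cyp2d11, Cyp2j11, Cyp2j13, Cyp3a16, Cyp3a41a, Cyp3a44, Cyp3a57, Cyp4a30b, Cyp4a31, Cyp4a32, Cyp17a1, Cyp19a1, Cyp26a1, Cyp26c1 and Cyp46a1. Their group means stayed at or below 0.183 CPM, the value of Cyp2c37. The other 13 were Cyp2a12, Cyp2c67, Cyp2c70, Cyp2d9, Cyp2f2, Cyp2j5, Cyp2j8, Cyp2r1, Cyp3a59, Cyp4a29, Cyp4f39, Cyp11a1 and Cyp27b1, of which Cyp2r1 and Cyp27b1 belong to vitamin D activation and Cyp11a1 starts steroid synthesis.

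Summed over all members, P450 transcripts amounted to 3308 ± 145 CPM (SD, n = 4) in DMSO at day 2, 2691 ± 387 in 4OHT at day 2, 2738 ± 112 in DMSO at day 4 and 3009 ± 175 in 4OHT at day 4. Fewer cells of a type and less RNA per cell cannot be told apart in these bulk libraries.

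At day 2 most P450 genes that differed between the treatments were lower in 4OHT, and the falls were spread over the drug-metabolising Cyp2 and fatty-acid-oxidising Cyp4 families. Of 48 members tested, 21 fell and 6 rose at an adjusted p below 0.05. Over all genes tested the percentages called lower and higher were 14.3 and 16.9, and 31.1 in either direction. The median log2 change was −0.31 over the members and −0.00 over all genes. Only 3 of the falls and 3 of the rises reached 2-fold, and the 4 libraries of each group did not overlap for 17 members on the low side and 7 on the high side. Over all genes tested, 15.8% lay apart on the low side and 16.6% on the high side.

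Absorptive enterocyte markers moved with these falls. Of 18 listed markers, 12 fell and none rose at day 2 in edgeR, with a median log2 change of −0.47, and at an unadjusted p below 0.05 the counts were 13 and 0 (DESeq2 called 13 and 0). Their summed level ran from 9169 to 11912 CPM in DMSO and from 6755 to 9412 in 4OHT. Other markers moved too at day 2: 6 of 8 goblet cell markers rose (median log2 change 0.66, sums of 4503 to 5199 CPM in DMSO and 6969 to 9030 in 4OHT). Of the crypt base stem markers 5 of 6 fell, from sums of 1514 to 1788 CPM to 972 to 1097, and of the Paneth markers 4 of 7 fell, from 1906 to 2444 CPM to 1546 to 1710. The part of cell content in the P450 differences was not tested.

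The deepest fall among members that reached 1 CPM in some group was that of Cyp4f15, of the leukotriene hydroxylase subfamily. It reached that level only in DMSO at day 4 (mean 1.60 CPM) and lay below it in both groups compared here. It read 0.579, 0.475, 0.388 and 0.457 CPM in DMSO at day 2 and 0.154, 0.0657, 0.0632 and 0.0446 in 4OHT, the latter from 4 to 11 counts a library. All 4 treated libraries lay far below the controls, and the transcript was 5.77-fold lower (log2 −2.53 ± 0.30 SE, adjusted p 7.14e-05).

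Cyp2e1, which oxidises ethanol and other small molecules, read 2.16, 1.89, 1.71 and 1.88 CPM in DMSO at day 2 and 0.519, 0.683, 0.569 and 0.546 in 4OHT. The groups did not overlap, and the fall was 3.26-fold (log2 −1.70 ± 0.13 SE, adjusted p 1.86e-06), the smallest p of any member on that day. Cyp2c70, which hydroxylates bile acids to muricholic acids in mice, had group means below 1 CPM and was singled out after its values were seen. It read 0.784, 0.626, 0.506 and 0.493 CPM in DMSO and 0.210, 0.263, 0.158 and 0.100 in 4OHT, again without overlap, a 3.28-fold fall (log2 −1.72 ± 0.27 SE, adjusted p 0.000513).

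In family 2, 13 of 25 tested members fell and none rose in edgeR or DESeq2, with 1 higher at an unadjusted p below 0.05. The family's median log2 change was −0.57. In the Cyp2c subfamily of arachidonic acid epoxygenases and drug oxidases, Cyp2c66 read 180, 177, 173 and 184 CPM in DMSO and 120, 139, 103 and 96.3 in 4OHT. It thus fell 1.54-fold (log2 −0.63 ± 0.09 SE, adjusted p 0.000377) with no overlap between groups. Its neighbour Cyp2c65 read 504, 474, 495 and 448 CPM in DMSO and 512, 570, 450 and 437 in 4OHT. These ranges overlapped and the log2 difference was 0.05 ± 0.08 (SE, adjusted p 0.704). The 2 transcripts share 20.6% and 19.5% of their 50-base windows with other genes, chiefly each other, so reads from shared stretches may have been left out or misassigned.

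Other Cyp2c members that fell were Cyp2c29 (126 ± 23.7 to 81.8 ± 12.2 CPM, SD, n = 4, log2 −0.61), Cyp2c68 (68.3 ± 9.0 to 43.1 ± 7.8, log2 −0.65) and Cyp2c38 (4.46 ± 0.08 to 2.98 ± 0.46, log2 −0.57). Cyp2c55, an epoxygenase and hydroxylase of the large and small bowel, read 116, 130, 108 and 149 CPM in DMSO and 98.5, 124, 94.5 and 90.1 in 4OHT, overlapping groups whose log2 difference of −0.29 ± 0.11 (SE) had an adjusted p of 0.0636. Cyp2c68 and the low Cyp2c67 share 43.3% and 52.8% of their windows with other genes, chiefly Cyp2c40, so their separate levels are uncertain. Among the Cyp2d genes, relatives of the human drug oxidase CYP2D6, Cyp2d26 read 111, 90.4, 108 and 77.7 CPM in DMSO and 66.7, 71.4, 48.5 and 51.8 in 4OHT. Every treated library lay below the controls (log2 −0.69 ± 0.13 SE, adjusted p 0.00236). Cyp2d22 fell from 3.57 ± 0.89 to 1.799 ± 0.440 CPM (log2 −0.98) and Cyp2d10 from 3.79 ± 0.56 to 2.45 ± 0.39 (log2 −0.61).

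Cyp2b10, the phenobarbital-inducible P450, read 289, 287, 265 and 291 CPM in DMSO and 214, 252, 178 and 165 in 4OHT. The treated libraries were lower without overlap (log2 −0.47 ± 0.11 SE, adjusted p 0.00601), though a fit over all 16 libraries gave an adjusted p of 0.0591. Cyp2j9, one of the Cyp2j epoxygenases, fell by 0.42 on the log2 scale (17.1 ± 1.8 to 12.7 ± 1.8 CPM, SD, n = 4), whereas for its more abundant neighbour Cyp2j6 the log2 difference of −0.27 ± 0.10 (SE) had an adjusted p of 0.0729. Cyp2u1, a long-chain fatty acid hydroxylase, fell by 0.57 (20.7 ± 4.3 to 13.8 ± 2.5 CPM), a call lost without replicate 1 of the DMSO group (adjusted p 0.103).

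In family 3, the main drug-metabolising family, 1 of 4 tested members fell. Cyp3a11, the counterpart of human CYP3A4, read 186, 164, 170 and 181 CPM in DMSO and 142, 169, 124 and 109 in 4OHT. Replicate 2 of the treated group lay within the control range. The log2 change of −0.36 ± 0.11 (SE, adjusted p 0.0256) did not pass in a fit over all 16 libraries (0.113) or without replicate 1 or 4 of the DMSO group or replicate 3 of the 4OHT group (0.132, 0.0591 and 0.0666). For Cyp3a13 and Cyp3a25 the log2 differences were −0.23 and −0.27 with adjusted p of 0.0868 and 0.0548.

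In family 4, 7 of 11 tested members fell and 2 rose. Cyp4b1, a fatty acid hydroxylase of lung and gut epithelium, read 36.3, 32.3, 38.6 and 30.9 CPM in DMSO and 21.3, 24.0, 17.5 and 15.7 in 4OHT. It fell 1.75-fold with no overlap (log2 −0.80 ± 0.12 SE, adjusted p 0.00036). Cyp4v3, the mouse counterpart of the fatty acid hydroxylase CYP4V2, read 73.2, 56.8, 72.5 and 52.5 CPM in DMSO and 48.6, 43.9, 37.1 and 35.7 in 4OHT, again without overlap (log2 −0.62 ± 0.12 SE, adjusted p 0.00246). Cyp4f14, the most abundant P450 by CPM, read 534, 458, 531 and 400 CPM in DMSO and 405, 442, 333 and 311 in 4OHT, with overlap at the lowest control. Its log2 change was −0.36 ± 0.12 (SE, adjusted p 0.0378), and the call was lost without replicate 1, 2 or 3 of the DMSO group or replicate 3 or 4 of the 4OHT group (0.0698 to 0.180). The call was also lost with no filter on low counts.

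Cyp4f16, of the same subfamily, read 59.4, 53.0, 56.6 and 49.1 CPM in DMSO and 44.0, 46.4, 39.8 and 36.2 in 4OHT, lower in every treated library (log2 −0.38 ± 0.08 SE, adjusted p 0.00373). Cyp4f13 and Cyp4f40 fell by 0.26 and 0.27 on the log2 scale, the last not called without any 1 of the same 5 libraries as Cyp4f14 (0.0604 to 0.0941). The 2 family 4 rises were small in transcript number. Cyp4f39, which makes the ultra-long-chain omega-hydroxy fatty acids of barrier lipids, stayed below 1 CPM and was singled out after its values were seen. It read 0.360, 0.367, 0.282 and 0.276 CPM in DMSO and 0.617, 0.880, 0.901 and 0.937 in 4OHT, a 2.61-fold rise without overlap (log2 1.38 ± 0.18 SE, adjusted p 0.000133). Cyp4f17 rose by 0.37 (adjusted p 0.0364), but under DESeq2 its adjusted p was 0.0617, and leaving out replicate 1, 2 or 4 of DMSO or 1, 3 or 4 of 4OHT gave 0.0600 to 0.109. Its call was also lost with no filter on low counts and in the fit over all 16 libraries.

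The other rises at day 2 were those of Cyp1b1, Cyp26b1, Cyp27a1 and Cyp20a1. Cyp1b1, which oxidises oestradiol and retinoids and answers to the aryl hydrocarbon receptor, read 0.630, 0.561, 0.588 and 1.39 CPM in DMSO and 2.43, 2.44, 2.99 and 2.83 in 4OHT. Even the high control, replicate 4, lay below every treated library, and the rise was 3.40-fold (log2 1.76 ± 0.24 SE, adjusted p 0.000198). Its relative Cyp1a1 read 6.93, 8.10, 5.01 and 10.8 CPM in DMSO and 6.75, 9.66, 6.70 and 5.77 in 4OHT, overlapping values with a log2 difference of −0.09 ± 0.21 (SE, adjusted p 0.793).

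Cyp26b1, which breaks down retinoic acid, read 5.18, 5.93, 6.71 and 5.58 CPM in DMSO and 13.2, 9.64, 13.6 and 14.5 in 4OHT. All treated libraries were higher, by 2.19-fold (log2 1.13 ± 0.12 SE, adjusted p 2.95e-05). Cyp27a1, the mitochondrial sterol 27-hydroxylase of bile acid synthesis, rose from 26.2 ± 1.2 to 31.1 ± 2.6 CPM (SD, n = 4, log2 0.26 ± 0.06 SE, adjusted p 0.00823). Cyp20a1, a P450 with no settled substrate, rose by 0.21 (adjusted p 0.0192), a call lost without replicate 3 of the DMSO group or replicate 3 or 4 of the 4OHT group (0.0582, 0.0630 and 0.0680).

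Of the 11 members tested at day 2 whose window held CAAAGNNCA, 7 fell (Cyp2c67, Cyp2c68, Cyp2c70, Cyp2d10, Cyp2d26, Cyp3a11 and Cyp4b1) and 4 were not called. Of the 30 tested with a window lacking the letters, 12 fell, 5 rose and 13 were not called. Of the 7 tested with no window at hand, 2 fell, 1 rose and 4 were not called. Over all genes 14.3% were called lower and 16.9% higher. Whether the letters bear on the calls was not tested. The 3 deepest falls were those of Cyp4f15 and Cyp2e1, without the letters, and Cyp2c70, with them. The call of Cyp2c67 was lost with DESeq2 and without replicate 1 or 2 of the DMSO group or replicate 3 or 4 of the 4OHT group. That of Cyp3a11 was lost in the settings given above. At day 4, 1 rose and 3 fell of 12 tested members with the letters, and 7 rose and 4 fell of 27 without them. None of the 7 tested with no window was called, and over all genes 13.7% were called higher and 11.1% lower.

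**Figure D2:**
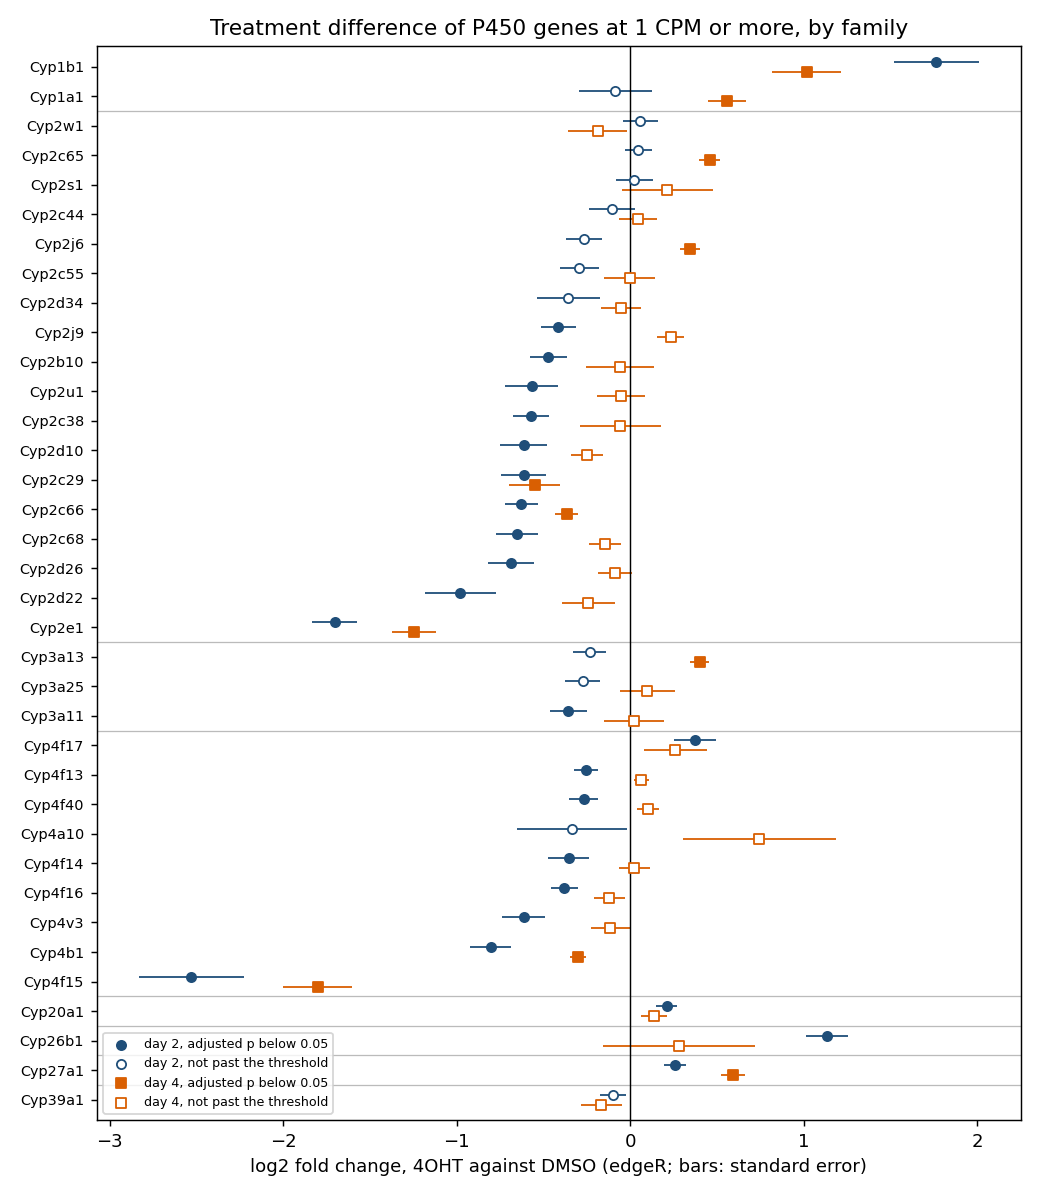
Log2 fold change of 4OHT against DMSO, with standard errors from edgeR, at day 2 (circles) and day 4 (squares) for P450 genes with a group mean of 1 CPM or more, ordered by family. Filled symbols passed an adjusted p of 0.05. Most circles in families 2 and 4 lie left of 0, while the squares of Cyp1a1, Cyp2c65, Cyp2j6, Cyp3a13 and Cyp27a1 lie to the right.

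At day 4 the P450 genes split more evenly, and abundant members such as Cyp2c65, Cyp2j6 and Cyp3a13 were higher in 4OHT. Of 46 members tested, 8 rose and 7 fell. Over all genes the percentages called higher and lower were 13.7 and 11.1, and 24.7 in either direction, against 32.6% of the members. The members' median log2 change was −0.05, beside −0.01 for all genes, and the groups did not overlap for 8 members on each side, beside 14.6% of all genes on the high side and 13.5% on the low side. Enterocyte markers no longer lay lower: 3 of 18 rose and 2 fell, with a median of 0.02 and sums of 11830 to 12717 CPM in DMSO and 11187 to 15015 in 4OHT. Goblet markers again rose for 6 of 8, crypt base stem markers fell for 6 of 6 and Paneth markers for 4 of 7, and their part was not tested.

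Libraries with the same replicate number deviated together on this day (correlations of 0.64 to 0.81), and a fit with the number as a block called 12 higher and 12 lower. Over all genes that fit called 22.8% higher and 22.2% lower. The 9 members added were Cyp2j9, Cyp4f40, Cyp20a1 and Cyp26b1 on the high side and Cyp2d9, Cyp2d10, Cyp2w1, Cyp4f16 and Cyp39a1 on the low side. Cyp2j9, for one, had a log2 difference of 0.23 with an adjusted p of 0.0541 without the block and 0.00248 with it. None of the 15 calls made without the block was lost.

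Cyp2c65 read 364, 349, 374 and 363 CPM in DMSO at day 4 and 471, 463, 513 and 543 in 4OHT. The treated libraries all lay higher, by 1.37-fold (log2 0.46 ± 0.06 SE, adjusted p 0.000501). The change in its treatment difference between the days, 0.42 on the log2 scale, had an adjusted p of 0.0514 in edgeR. DESeq2 and the fit with the replicate block called that change. Cyp2c66, in contrast, read 91.5, 93.0, 99.1 and 102 CPM in DMSO and 66.3, 77.6, 82.6 and 72.1 in 4OHT, a 1.29-fold fall without overlap (log2 −0.37 ± 0.07 SE, adjusted p 0.00324). The neighbouring copies therefore changed in opposite directions at day 4. Whether the A9C substitution plays a part was not tested.

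**Figure D3:**
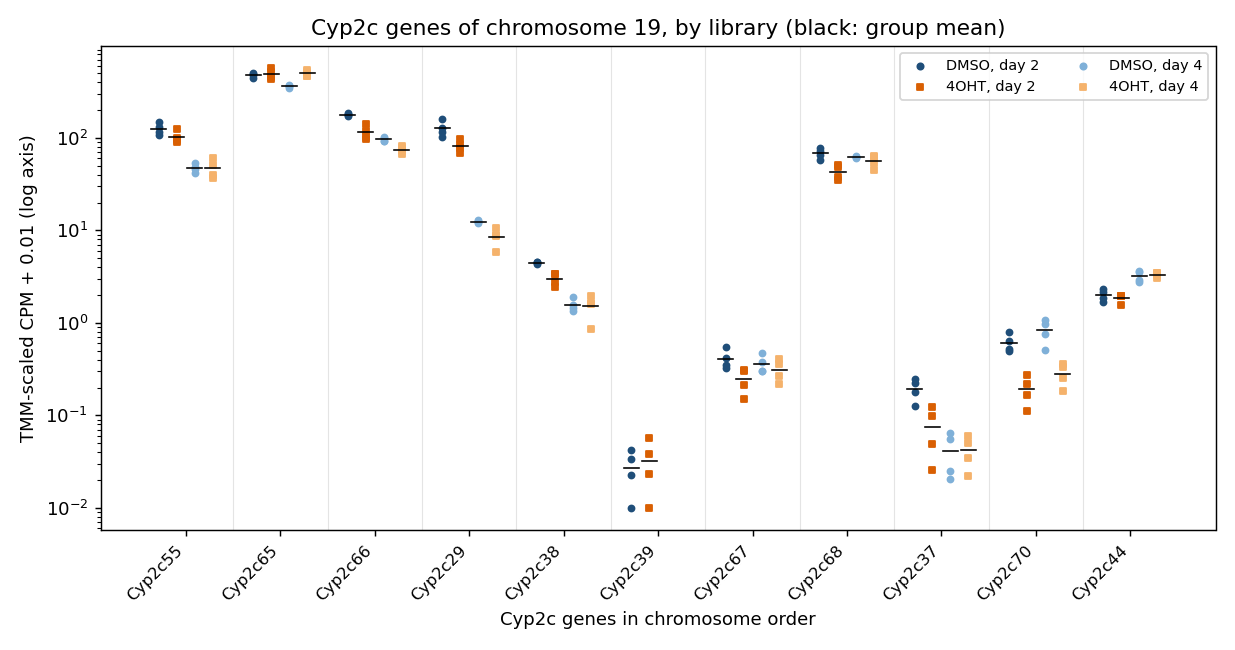
TMM-scaled CPM plus 0.01 on a log axis of the 11 Cyp2c genes in their order on chromosome 19, with a point for each library and a black bar at each group mean. The levels of neighbouring genes range from below 1 CPM for Cyp2c39, listed in the day 2 table only, to as much as 570 CPM for Cyp2c65, and Cyp2c29 lies 10.1-fold lower at day 4 than at day 2 in DMSO.

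Cyp3a13 read 186, 190, 202 and 208 CPM in DMSO and 239, 261, 275 and 261 in 4OHT. It rose 1.32-fold without overlap (log2 0.40 ± 0.05 SE, adjusted p 0.000646). Cyp2j6 read 344, 338, 353 and 365 CPM in DMSO and 437, 465, 473 and 398 in 4OHT, also without overlap, a 1.27-fold rise (log2 0.34 ± 0.06 SE, adjusted p 0.00229). For Cyp3a11 the means were 135 ± 9.95 and 136 ± 37.4 CPM (SD, n = 4), with treated libraries from 88.1 to 179 that enclosed all controls.

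Cyp27a1 read 15.0, 13.3, 13.9 and 14.9 CPM in DMSO and 23.6, 20.02, 22.2 and 20.1 in 4OHT, a 1.51-fold rise (log2 0.59 ± 0.07 SE, adjusted p 0.000294). Cyp1b1 rose 2.02-fold (0.677 ± 0.137 to 1.37 ± 0.29 CPM, SD, n = 4, adjusted p 0.00442). Its relative Cyp1a1, an inducible enzyme of the epithelium that oxidises polycyclic aromatic compounds, was also called higher at day 4. It read 1.63, 1.83, 1.72 and 1.87 CPM in DMSO and 2.44, 2.81, 2.75 and 2.37 in 4OHT (log2 0.56 ± 0.11 SE, adjusted p 0.00459). The change in its treatment difference between the days had an adjusted p of 0.223 in edgeR. Cyp4f39 and Cyp2f2, an airway-type naphthalene oxidase, rose by 0.85 and 1.03 on the log2 scale from levels below 1 CPM.

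The falls that were called on both days were those of Cyp2c29, Cyp2c66, Cyp2c70, Cyp2e1, Cyp4b1 and Cyp4f15, and the rises called on both were those of Cyp1b1, Cyp4f39 and Cyp27a1. The share of all genes called in the same direction on both days was not counted. Cyp4f15 read 1.69, 1.62, 1.51 and 1.58 CPM in DMSO at day 4 and 0.446, 0.642, 0.448 and 0.294 in 4OHT, 3.49-fold lower with no overlap (log2 −1.802 ± 0.20 SE, adjusted p 0.000219). Cyp2e1 read 3.32, 2.55, 2.61 and 3.18 CPM in DMSO and 1.35, 1.15, 1.18 and 1.23 in 4OHT, 2.37-fold lower (log2 −1.25 ± 0.13 SE, adjusted p 0.000151). Cyp2c70 was 3.04-fold lower and Cyp4b1 1.23-fold lower.

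Cyp2c29, a hepatic-type epoxygenase, read 12.3, 12.7, 11.97 and 12.8 CPM in DMSO and 8.61, 10.7, 8.86 and 5.79 in 4OHT at day 4 (log2 −0.55 ± 0.15 SE, adjusted p 0.0213). The call was lost without replicate 1 or 2 of the DMSO group (0.0505 and 0.0520). Cyp3a59 fell by 0.63 (adjusted p 0.0457) from a level below 1 CPM, and shares 30.0% of its windows with other genes, chiefly Cyp3a25. Its call was lost with DESeq2, with no filter on low counts, in the fit over all 16 libraries and when any 1 library but replicate 3 of the 4OHT group was left out.

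Cyp26b1 was uneven at day 4. It read 18.4, 6.10, 18.1 and 21.7 CPM in DMSO and 26.6, 7.59, 17.97 and 25.2 in 4OHT, so replicate 2 was low under both treatments. The log2 difference was 0.28 ± 0.44 (SE, adjusted p 0.689), and 0.27 ± 0.08 with an adjusted p of 0.0205 with the replicate block. Cyp2s1, an epithelial P450 that acts on eicosanoids and retinoids, showed the same low replicate 2 at day 4, with 171, 116, 207 and 188 CPM in DMSO and 173, 115, 218 and 281 in 4OHT (adjusted p 0.602). At day 2 it had read 107, 98.1, 101 and 86.3 CPM in DMSO and 110, 97.9, 76.3 and 112 in 4OHT, overlapping values with a log2 difference of 0.02 ± 0.10 (SE, adjusted p 0.890).

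Other abundant members that had fallen at day 2 overlapped between the treatments at day 4. Cyp2d26 read 171, 174, 215 and 217 CPM in DMSO and 165, 186, 209 and 170 in 4OHT (log2 −0.09 ± 0.10 SE, adjusted p 0.548). Cyp4v3 read 109, 104, 107 and 101 CPM in DMSO and 99.7, 114, 102 and 72.4 in 4OHT (log2 −0.12 ± 0.11 SE, adjusted p 0.503). Cyp4f14 read 477, 491, 521 and 519 CPM in DMSO and 462, 566, 572 and 438 in 4OHT (log2 0.02 ± 0.09 SE, adjusted p 0.877). Cyp2b10 read 106, 135, 94.9 and 111 CPM in DMSO and 108, 144, 108 and 68.2 in 4OHT (log2 −0.06 ± 0.20 SE, adjusted p 0.861). For Cyp2c68 and Cyp4f16 the log2 differences were −0.15 and −0.12 with adjusted p of 0.287 and 0.359. For Cyp2d26, Cyp4v3, Cyp2c68 and Cyp4f16 the change in treatment difference between the days had adjusted p of 0.114, 0.174, 0.142 and 0.294, while the fit with the replicate block called all 4 (0.0309, 0.0467, 0.0300 and 0.0230) and DESeq2 called Cyp2d26. For Cyp4f14 and Cyp2b10 that change had adjusted p of 0.232 and 0.409 in edgeR, and neither the block nor DESeq2 called it.

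The treatment difference itself was then compared between the days in one model over all 16 libraries. It was higher at day 4 than at day 2 for 3 of 49 members tested and lower for 0 in edgeR, where the percentages over all genes were 1.2 and 0.476, and 1.68 in either direction. At an unadjusted p below 0.05 the counts were 19 higher and 2 lower, a threshold at which all genes were not counted. DESeq2 called 9 members higher and 0 lower, beside 600 and 247 over all genes. The members' median difference was 0.37 on the log2 scale beside 0.01 for all genes. For the 18 enterocyte markers that median was 0.48, with 1 called, and their part in the members' shift was not tested.

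The 3 members were Cyp3a13 (0.64 ± 0.12 SE, adjusted p 0.0121), Cyp2j9 (0.66 ± 0.14, adjusted p 0.0248) and Cyp2j6 (0.62 ± 0.13, adjusted p 0.0258). Cyp2j6 read 482, 434, 465 and 393 CPM in DMSO at day 2 and 397, 431, 336 and 298 in 4OHT, mostly lower with treatment, and was higher in every treated library at day 4. Cyp3a13 read 320, 312, 329 and 339 CPM in DMSO and 278, 334, 261 and 224 in 4OHT at day 2, where 3 of 4 treated libraries lay below all controls. Cyp2j9 read 19.4, 16.7, 17.2 and 15.0 CPM in DMSO and 14.7, 13.7, 11.7 and 10.7 in 4OHT at day 2, and 14.5, 14.4, 13.8 and 13.3 against 18.4, 17.01, 15.9 and 14.5 at day 4. With 1 library left out, the count of members higher came to 1 (without replicate 1, 2 or 3 of DMSO at day 2, replicate 3 of 4OHT at day 2 or replicate 3 of DMSO at day 4), 6 (without replicate 4 of 4OHT at day 4), 7 (without replicate 2 of 4OHT at day 2) or 8 (without replicate 4 of DMSO at day 2), and lay within 1.5 times of 3 without the others. Cyp3a13 kept its call in each of these fits. Cyp2j6 and Cyp2j9 both lost theirs in the fits whose count came to 1. Cyp2j6 was also not called without replicate 1 or 2 of DMSO or replicate 3 of 4OHT at day 4. Cyp2j9 was also not called without replicate 4 of 4OHT at day 2.

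**Figure D4:**
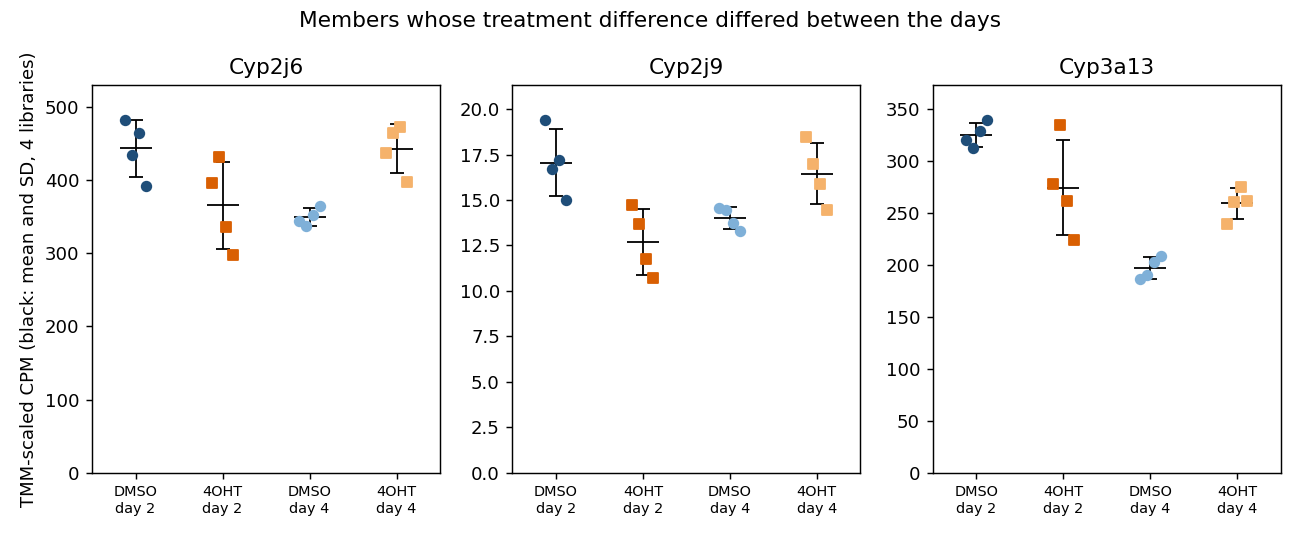
TMM-scaled CPM, from 0, of Cyp2j6, Cyp2j9 and Cyp3a13 in each library of the 4 groups, with the mean and SD of 4 libraries in black. In each panel the treated mean lies below the control mean at day 2 and above it at day 4.

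The comparison of day 4 with day 2 followed the same members through culture, separately for DMSO and for 4OHT, and each of these comparisons shares its libraries with the treatment comparisons. In DMSO 18 of 46 tested members rose and 14 fell, where the percentages over all genes were 28.7 and 24.8 and 53.5 in either direction. In 4OHT 20 rose and 10 fell of 46, beside 25.9 and 23.5 and 49.4 over all genes. Crypt base stem markers rose in both, 6 of 6, and enterocyte markers rose for 8 and fell for 5 of 18 in DMSO and rose for 11 and fell for 4 in 4OHT. Their part in the P450 changes was not tested.

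The 7 members that fell with time under both treatments were Cyp1a1, Cyp2b10, Cyp2c29, Cyp2c38, Cyp2c55, Cyp2c66 and Cyp27a1. The shares of all genes that fell, or rose, under both treatments were not counted. Cyp2c29 dropped from 116, 127, 103 and 159 CPM at day 2 to 12.3, 12.7, 11.97 and 12.8 CPM at day 4 in DMSO, a 10.1-fold fall (log2 −3.34 ± 0.12 SE, adjusted p 4.1e-09), and 9.65-fold in 4OHT. Cyp1a1 was 4.36-fold lower in DMSO (log2 −2.12, adjusted p 5.47e-06) and 2.79-fold lower in 4OHT. In DMSO Cyp2c38, Cyp2c55, Cyp2b10 and Cyp2c66 fell by 1.499, 1.40, 1.34 and 0.88 on the log2 scale, and in 4OHT by 0.99, 1.11, 0.92 and 0.62.

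The 15 members that rose under both treatments included all 5 tested Cyp2d genes and, of family 4, Cyp4a10, Cyp4f15, Cyp4f16 and Cyp4v3. Cyp4a10, a PPARα-responsive fatty acid omega-hydroxylase, went from 0.149 ± 0.043 to 0.625 ± 0.098 CPM in DMSO (SD, n = 4, log2 2.06 ± 0.23 SE, adjusted p 8.59e-06). In 4OHT it went from 0.113 ± 0.040 to 1.04 ± 0.82 CPM, where replicate 4 alone read 2.26 and the others 0.506 to 0.693. Its transcripts share 29.8% of their windows with other genes, chiefly Cyp4a31.

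Cyp4f15 rose by 1.76 in DMSO and 2.49 in 4OHT. The drug oxidases Cyp2d22, Cyp2d34 and Cyp2d26 rose by 1.05, 1.05 and 1.01 in DMSO and by 1.79, 1.36 and 1.61 in 4OHT, and Cyp4v3 rose by 0.73 and 1.23. Cyp26b1 rose by 1.45 in DMSO (adjusted p 0.00872), while its log2 change in 4OHT was 0.60 ± 0.34 (SE, adjusted p 0.182). Cyp2j9 was called in opposite directions, −0.28 in DMSO and 0.37 in 4OHT, a difference tested by the model over all 16 libraries.

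**Figure D5:**
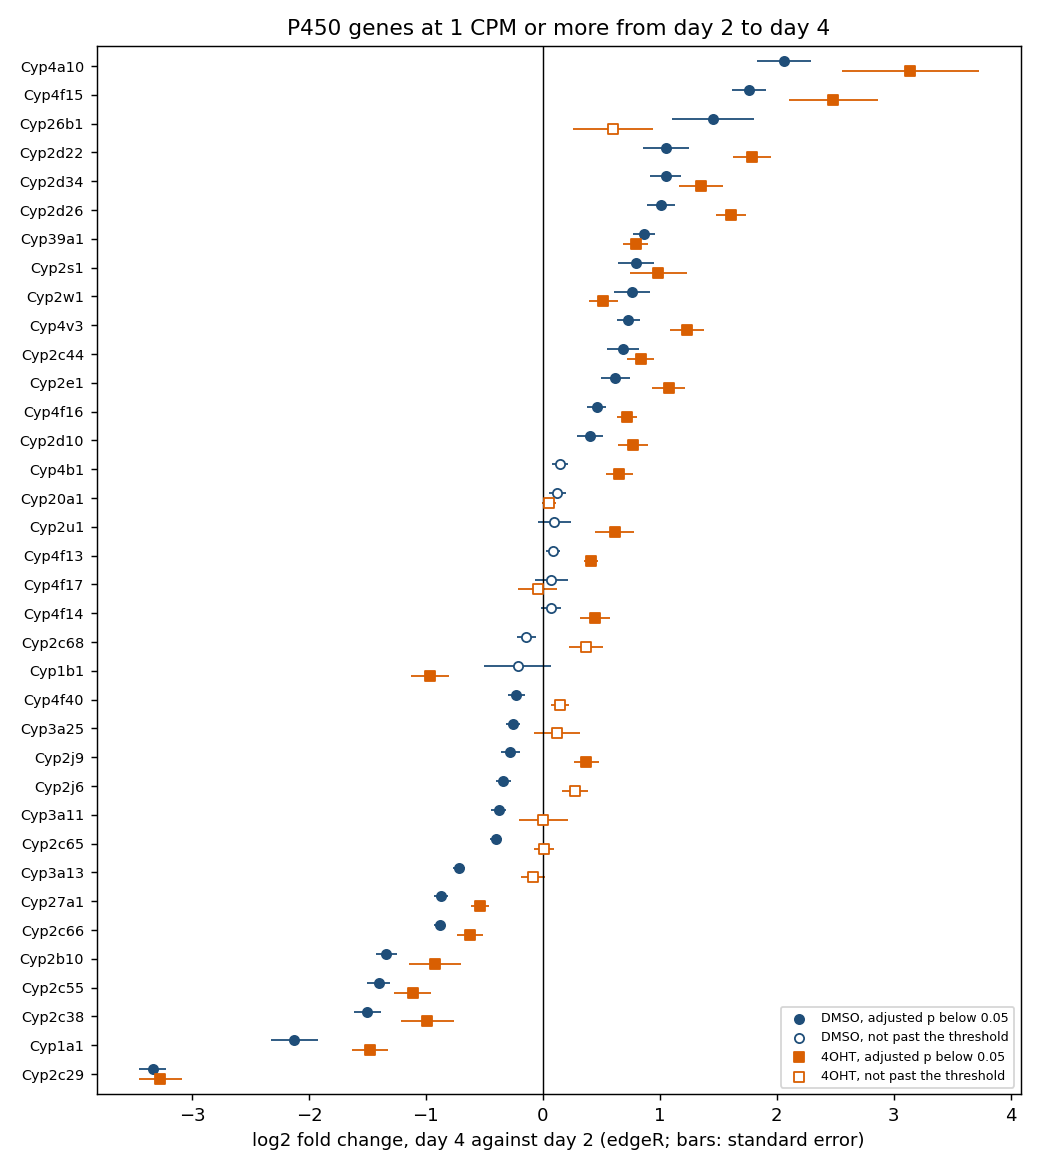
Log2 fold change of day 4 against day 2, with standard errors from edgeR, in DMSO (circles) and 4OHT (squares) for P450 genes with a group mean of 1 CPM or more, ordered by the change in DMSO. Filled symbols passed an adjusted p of 0.05. Cyp2c29 and Cyp1a1 lie farthest left and Cyp4a10 and Cyp4f15 farthest right in DMSO.

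Genes that serve P450 enzymes were read from the same fits. Of 12 tested electron donors and their binding partners, 5 fell at day 2 and none rose in edgeR or DESeq2 (2 were higher at an unadjusted p below 0.05), which made 41.7% of them called beside 31.1% of all genes. The 3 smallest p among them were those of Pgrmc1, a haem-binding P450 partner, Cyb5a, which is cytochrome b5, and Cyb5r3, its reductase, with log2 changes of −0.30, −0.34 and −0.35. Por, the reductase on which microsomal P450 enzymes depend, read 355 ± 15 and 341 ± 24 CPM (SD, n = 4, adjusted p 0.547). At day 4, 1 of the 12 rose, Cyb5b (log2 0.42, adjusted p 0.00135), and none fell in edgeR or DESeq2 (1 was lower at an unadjusted p below 0.05), while the replicate block called 3 higher and 3 lower.

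Of 12 haem synthesis and removal genes, 1 rose and 3 fell at day 2, or 33.3% beside 31.1% of all genes. Hmox1, which degrades haem, rose by 0.86 and Urod, of haem synthesis, fell by 0.27. At day 4 none was called in edgeR, 2 were lower at an unadjusted p below 0.05, DESeq2 called 1 lower, and the replicate block called 1 higher and 3 lower. Among epoxide hydrolases, which open the epoxides that P450 enzymes make, Ephx4 rose from 0.390 ± 0.042 to 2.401 ± 0.175 CPM at day 2 and stood at 0.129 ± 0.050 and 2.61 ± 0.67 at day 4 (SD, n = 4, log2 2.63 and 4.35). Ephx1, the microsomal enzyme, fell by 0.36 at day 2 (adjusted p 0.00153), with a log2 difference of 0.09 at day 4 (adjusted p 0.348).

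Of 35 tested regulators of P450 genes, 8 rose and 9 fell at day 2, and of 36 at day 4, 9 rose and 6 fell. That made 48.6% and 41.7% of the list, beside 31.1% and 24.7% of all genes, and with the replicate block 11 rose and 13 fell at day 4. Besides Hnf4a, the smallest p at day 2 were those of Rarg, a retinoic acid receptor (24.0 ± 0.8 to 44.9 ± 2.3 CPM, SD, n = 4, log2 0.92), and Pparg (log2 0.69). Ahr, Nr1i3 and Nr1i2, the receptors for aryl hydrocarbons, phenobarbital-type inducers and steroids or drugs, are given for their textbook roles and were picked after their values were seen. Ahr rose by 0.47 at day 2 and 0.31 at day 4, and of its listed targets Tiparp fell by 0.19 and 0.24 while Ahrr rose by 1.06 at day 2 (adjusted p 0.00926), with a log2 difference of −0.07 at day 4 (adjusted p 0.900). Nr1i3 and Nr1i2 fell by 0.52 and 0.20 at day 2 and had log2 differences of −0.02 and 0.05 at day 4 (adjusted p 0.946 and 0.585).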

How the data were processed

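The 16 RNA-seq libraries from jejunal organoids were analysed, 4 in each of 4 groups given by the labels' treatment and time point. The deposited tables give raw counts per gene, from reads processed with bcl2fastq 1.8.4 and STAR 2.4.0f1 on GRCm38, per the submitters' processing notes, while the counting tool, annotation and strandedness were not given in the sources used here. Each table lists only genes with at least 10 reads over its 8 libraries. The library preparation marks strand, per the labels' protocols.

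From the counts, each treatment comparison within a day, each day comparison within a treatment and the interaction over 16 libraries was fitted with edgeR 4.0.16 (TMM, filterByExpr, robust quasi-likelihood test) in R 4.3.3. P-values were adjusted by Benjamini-Hochberg over all genes tested, and a call is an adjusted p below 0.05. SE is the absolute log2 change divided by the square root of F. Printed CPM use TMM factors over all 16 libraries, while folds come from each fit. The 24 within-group library pairs all differed by more than counting noise. Gene positions and exon lengths come from GENCODE M21 (GRCm38), where all 70 members were found, and sequences from RefSeq (GRCm38.p6). The fits were tested on simulated counts. Alternatives were DESeq2 1.42.0, its size factors in edgeR, 2 other filters, a replicate block, a fit over 16 libraries and leaving out each library.

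Members given in detail are the 12 highest in mean CPM and those called in the interaction at 1 CPM or more. Also given are up to 12 members a treatment comparison with the smallest p among those called at that level. For each, values in every library or group means with SD are printed for at least 1 day. Each time comparison names up to 6 changes a direction. Members outside this rule are named with a fold only within their family or where marked as picked after their values were seen. The members and gene lists were chosen with earlier results of these data known. Same-numbered libraries deviated together at day 4 (correlations 0.64 to 0.81), where each of the 8 matched its own number most closely. On that day the numbers may thus mark pairs, read from the data and not from the labels. The reported day 4 fit, with its SE and adjusted p, did not use them. The replicate block did, as an alternative fit.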

Additional observations from a re-analysis of the deposited data

Results flagged for a closer look

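The treatment difference was higher at day 4 than at day 2 by 0.62 on the log2 scale for Cyp2j6, 0.66 for Cyp2j9 and 0.64 for Cyp3a13, by an interaction term over 16 libraries. The calls of Cyp2j6 and Cyp2j9 were lost in several fits with 1 library left out. In the DMSO group at day 2, replicate 3 of Cyp2b10, at 265 CPM, lay apart below the other 3 libraries, and replicate 4 of Cyp1b1, at 1.39 CPM, lay apart above them. Those 2 came from 96 groups of 4 libraries examined for a lone distant value (Dixon's criterion), and chance marks about 1 group in 20.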

How the results depend on the processing

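For the members the rule names in each comparison, no called change reversed its direction in an alternative fit. Direction was not checked outside that rule. With the replicate block, 12 rather than 7 members were lower at day 4, and 12 rather than 8 were higher, while calls over all genes went from 2191 higher and 1776 lower to 3651 and 3565. The interaction was the least settled count, as 3 members higher in the reported fit became 9 with DESeq2, 5 with a minimum of 1 CPM in 4 libraries, and 14 higher with 1 lower with the block, although the numbers were not shown to pair the day 2 libraries (correlations −0.11 to 0.48). Over all genes the interaction calls were 199 higher and 79 lower in the reported fit, 600 and 247 with DESeq2, 292 and 99 with the 1 CPM minimum and 1170 and 680 with the block. The cause was not tested. Leaving out each library in turn gave 4 to 7 members higher and 17 to 25 lower at day 2, 8 to 9 and 5 to 7 at day 4, 17 to 21 and 14 to 17 over time in DMSO, 20 to 22 and 10 in 4OHT, and 1 to 8 and 0 to 1 for the interaction. The block changed the day 2 counts to 6 and 24. For the members the rule names in each comparison, calls were lost in 29 of 335 alternative fits at day 2, 2 of 154 at day 4, 14 of 63 for the interaction and 0 of the time fits. Outside that rule, Cyp3a59 lost its calls at day 4 and over time in DMSO in many settings, Cyp2c67 at day 2 in some, and Cyp3a11 and Cyp3a25 over time in DMSO in the fit over 16 libraries. Members below 1 CPM rest on few reads a library, and differences among them were often not detectable at this depth.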
